A study of Mus musculus with 6 samples.

Results

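Macrophage and leukocyte markers, 10 of the genes read in whole mouse skin, were followed: Ptprc, Cd52, Lyz1, Lyz2, Cd68, Adgre1, Cd14, Csf1r, Mrc1 and Fcgr3. Their members on the array were all probe sets annotated with one of these 10 symbols, which gave 16 of 12422 probe sets. A probe set is a group of short probes on an Affymetrix array read together as 1 value. Of the 10 genes 9 had a probe set of their own, among 8251 such genes on the array. Lyz1 was read only by a probe set that also lists Lyz2, so Lyz1 by itself was not measured. Total RNA came from skin taken 5 days after birth from 3 FVB samples, an albino inbred mouse strain, and from 3 samples of GC13, a transgenic line with Hoxc13 overexpression. The labels name neither the promoter of the transgene nor the strain background of GC13. Nor do they tell whether each sample came from its own mouse, and every p-value below therefore rests on a sample-to-sample spread that could be partly technical. No probe set was annotated to Hoxc13, so the transgene itself was not analysed here.

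Macrophages are phagocytes that live in the dermis and around hair follicles, and with mast cells, Langerhans cells and T cells they form the resident immune cells of skin. Csf1r is the receptor whose signal keeps macrophages alive, Cd14 and Fcgr3 are receptors for bacterial lipopolysaccharide and for antibody, and Mrc1 is a lectin receptor of resident macrophages. Ptprc and Cd52 are on the surface of nearly all leukocytes and of most lymphoid and myeloid cells, respectively. The lysozymes are secreted antibacterial enzymes, and Cd68 is a glycoprotein of the lysosome. In whole skin, fewer cells of a type and less RNA per cell cannot be told apart.

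Lyz1 and Lyz2 are neighbouring genes on chromosome 10 that encode closely related proteins. Their upstream sequences are shown because the only value that includes Lyz1 is shared between both. RefSeq's table for GRCm38.p6 held start sites of 6 of the 10 genes (Ptprc, Lyz1, Lyz2, Cd68, Mrc1 and Fcgr3). Below are the 250 bases before the start of each lysozyme gene, 5′ to 3′ on the minus strand, at chr10:117292869-117293118 for Lyz1 and chr10:117282273-117282522 for Lyz2. Capitals mark a match to GGAAGT, read here as ACTTCC on the other strand.
Lyz1: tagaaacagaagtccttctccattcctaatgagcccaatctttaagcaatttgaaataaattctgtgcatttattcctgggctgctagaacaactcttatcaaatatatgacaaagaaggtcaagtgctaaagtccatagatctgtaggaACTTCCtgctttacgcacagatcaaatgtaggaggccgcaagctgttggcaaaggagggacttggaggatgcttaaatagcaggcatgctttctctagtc
Lyz2: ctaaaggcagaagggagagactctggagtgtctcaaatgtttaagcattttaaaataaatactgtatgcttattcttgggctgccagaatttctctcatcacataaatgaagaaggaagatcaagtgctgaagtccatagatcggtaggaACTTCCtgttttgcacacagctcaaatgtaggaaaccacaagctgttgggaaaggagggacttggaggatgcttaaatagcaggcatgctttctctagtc

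A global alignment of these 250 bases had 200 identical positions over 252 columns, 79.4%, and the last 50 bases were the same at all 50 positions. The match began 100 bases before the start in both genes. GGAAGT holds the GGAA core bound by ETS factors, a family that includes the myeloid factor PU.1, and GAGGAA is the PU.1 box. Searched on both strands of the 250 bases, GGAAGT was present for Lyz1, Lyz2, Mrc1 and Ptprc and in 19.7% of the 32851 start sites of the table. GAGGAA was present for Cd68, Fcgr3, Mrc1 and Ptprc and in 23.3% of them. The motifs share GGAA, so 1 stretch can match both, and a gene with several starts was counted when any of them matched. Both motifs were chosen after the sequences had been seen, and a match describes letters, not a binding site.

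The tissue and its RNA were checked on the same arrays. Krt1, a keratin of differentiating epidermis, read 1216 to 3661 (limma adjusted p = 0.158 between the lines, and 0.01 without GC13 replicate 2) and Col1a1, a collagen of the dermis, read 2006 to 3405 over the 6 arrays, while the brightest probe sets annotated to Krt5 and Krt14 alone, both basal keratins, read 1.62 to 10.6 and 1.67 to 14.2. Krt5 and Krt14 were picked out for their low values. Total intensity ran from 1626361 to 1736141 per array, and the number of arrays, 3 per group, limits the precision. The Gapdh 3′ over 5′ ratio, which goes up when the 5′ ends of transcripts are lost, was 0.894 to 0.958 on the FVB arrays and 2.22, 9.58 and 2.19 on GC13 replicates 1, 2 and 3 (exact two-sided permutation p = 0.1, the smallest that 3 against 3 allows). The beta-actin 3′ over 5′ ratio overlapped between the groups, at 1.36, 1.26 and 1.16 in FVB and 1.26, 3.8 and 1.43 in GC13 (exact two-sided permutation p = 0.2), with GC13 replicate 2 the highest in both genes. The Gapdh ratio separated the groups, and its part in the differences below was not tested. The Y-linked gene Eif2s3y read 69.4 to 98.9 in FVB and 3.25, 143 and 4.6 in GC13, and Xist, the RNA of the inactive X chromosome, read 9.95 to 11.9 in FVB and 9.15, 1.07 and 12.6. Where a fold change reported here changed sign or passed the threshold without GC13 replicate 2, this is stated. Without that array all GC13 arrays are low and all FVB arrays high in Eif2s3y, so in every such result this signal and the line cannot be told apart.

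None of the markers passed the test between GC13 and FVB. Values were compared as log2(intensity + 2) after each array was centred on its median, with limma over the 9316 probe sets that were left when the dimmest 25% were removed. Values given as read, their sums, and statements on which arrays overlap refer to deposited intensities before centring, unless the centred scale is named. Before centring, GC13 replicate 2 had the lowest median intensity, 29, and the other arrays had 34.2 to 37.4. Of the 16 marker probe sets 11 were tested and 0 were called at a limma adjusted p under 0.05, against 0.472% of all tested probe sets, 44 of 9316, of which 8 were higher and 36 lower in GC13. At an unadjusted p under 0.05 there was 1 of 11, that of Adgre1, against 15.5% of all. The log2 fold changes, GC13 minus FVB, were above 0 for 6 and below 0 for 5 of the 11. By the brightest probe set of each gene, the median of the 9 genes was 0.11, beside 0.08 over the 9316 tested probe sets and 0.14 over all 12422. The 95% intervals reached from 0.45 to 1.14 on either side of the estimate, beside a median of 0.62 over all tested probe sets. With intervals this wide, a marker that missed the threshold is not shown to be at the same level in both lines.

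**Figure D1:**
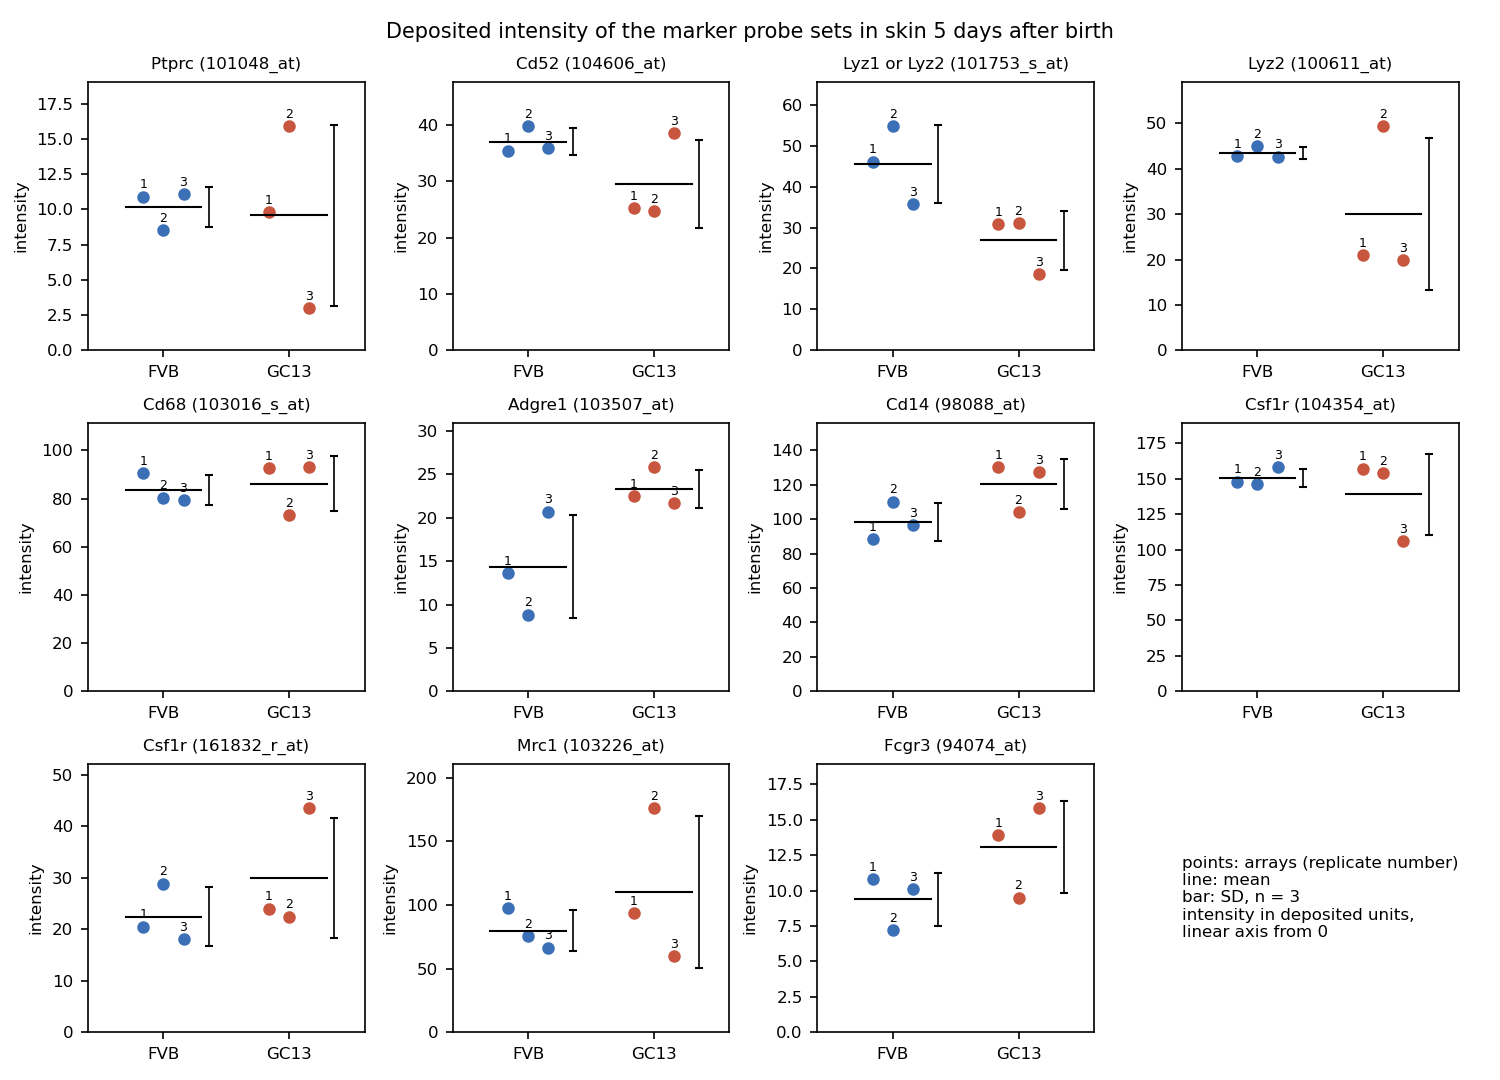
Deposited intensity (linear axis from 0) of the 11 tested marker probe sets in FVB and GC13, with 1 point per array labelled by replicate, the mean as a line and the SD (n = 3) as a bar. The groups lie apart in 2 panels, Adgre1 (8.83 to 20.7 against 21.7 to 25.8) and the probe set of Lyz1 or Lyz2 (35.7 to 54.7 against 18.6 to 31.1).

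Leukocyte-wide markers come first. Ptprc, on chromosome 1, encodes the receptor tyrosine phosphatase CD45, which is on all nucleated blood cells and sets the activity of Src family kinases. Its brightest probe set read 10.9, 8.54 and 11.1 in FVB, and GC13 read 9.80, 15.9 and 3.02. GC13 replicate 2 was the highest of the 6 arrays, GC13 replicate 3 was the lowest, and the groups overlapped. The log2 fold change was -0.17 (SE 0.49, 95% interval -1.31 to 0.96, limma adjusted p = 0.892), the widest interval among the markers. It was -0.68 without GC13 replicate 2 and 0.41 without GC13 replicate 3. The other probe sets of Ptprc were too dim to be tested: 1 read 2.43 to 5.48 in FVB and 9.50, 9.54 and 4.02 in GC13, and the dimmest stayed at or below 1.06 on every array.

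Cd52, on chromosome 4, encodes a very short glycoprotein anchored by lipid to lymphocytes and monocytes. Its probe set read 35.4, 39.7 and 35.8 in FVB and 25.2, 24.7 and 38.5 in GC13. Replicates 1 and 2 of GC13 lay below every FVB array and replicate 3 lay among them. GC13 minus FVB came to -0.26 on the log2 scale (SE 0.21, 95% interval -0.74 to 0.22, limma adjusted p = 0.59), and it was -0.25 without GC13 replicate 2.

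The lysozymes had the lowest log2 fold changes among the markers. Lyz2 is the lysozyme of macrophages and neutrophils, and Lyz1 is best known from Paneth cells of the gut. The probe set that lists both read 46.1, 54.7 and 35.7 in FVB and 30.8, 31.1 and 18.6 in GC13. In deposited intensity every GC13 array was thus below every FVB array. Its log2 fold change was -0.66 (SE 0.31, 95% interval -1.38 to 0.06, limma adjusted p = 0.36). Groups that did not overlap in deposited intensity were found for 2 of the 11 marker probe sets, beside 22.9% of all tested probe sets. On the centred log2 scale the groups lay apart for Adgre1, Cd14 and Fcgr3 and overlapped for the shared lysozyme probe set. The share of all probe sets was not computed on that scale.

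The probe set of Lyz2 alone read 42.7, 45.0 and 42.6 in FVB and 20.9, 49.3 and 19.9 in GC13. Replicates 1 and 3 of GC13 were below all FVB arrays, and replicate 2 was above them. The log2 fold change was -0.55 (SE 0.40, 95% interval -1.47 to 0.37, limma adjusted p = 0.55). Leaving out GC13 replicate 2, whose Gapdh ratio was 9.58, gave -1.04 with a limma adjusted p of 0.0125, in a fit that called 14.8% of all probe sets. Lyz2 was the 1 marker probe set called there. In deposited intensity the 2 lysozyme probe sets read differently on GC13 replicate 2, where the shared one, at 31.1, stayed below the FVB arrays. On the centred log2 scale the shared one stood at -0.23 on that array, above FVB replicate 3 at -0.34, and Lyz2 stood at 0.44. Another probe set of Lyz2 read 3.03 or less on every array and was not tested.

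**Figure D2:**
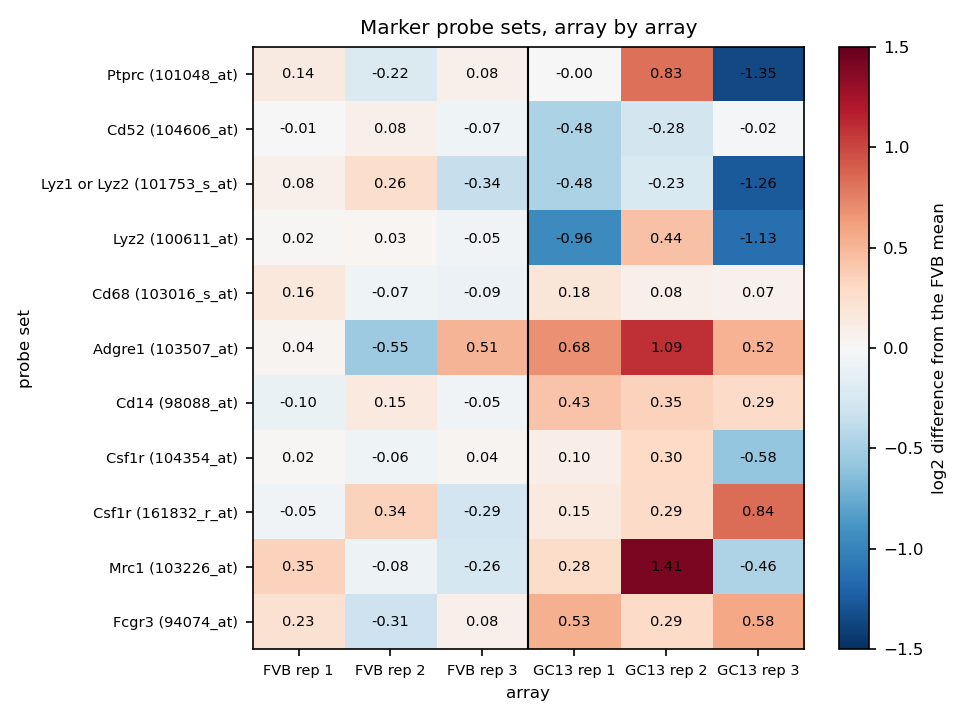
Difference of each array from the FVB mean on the centred log2 scale (colour and printed value) for the 11 tested marker probe sets (rows) on the 6 arrays (columns). On GC13 replicate 2, Mrc1 stood at 1.41, Adgre1 at 1.09 and Ptprc at 0.83, while on GC13 replicate 3 Ptprc, Lyz2 and the probe set of Lyz1 or Lyz2 stood at -1.35, -1.13 and -1.26.

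Cd68, the lysosomal marker on chromosome 11, had the estimate nearest to FVB after Csf1r. Its brighter probe set read 90.6, 80.4 and 79.5 in FVB, and the GC13 arrays read 92.6, 73.1 and 93.0. In deposited intensity the groups overlapped on both sides. The log2 fold change was 0.11 (SE 0.19, 95% interval -0.34 to 0.56, limma adjusted p = 0.816). A second probe set of Cd68 read 1.76 or less throughout and was not tested.

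Among surface proteins of tissue macrophages, Adgre1, on chromosome 17, encodes F4/80, the adhesion receptor most used to stain mouse macrophages. Its brighter probe set read 13.6, 8.83 and 20.7 in FVB and 22.5, 25.8 and 21.7 in GC13. All GC13 arrays were higher than all FVB arrays, by the step from 20.7 to 21.7 at the closest. Its log2 fold change of 0.76 was the highest among the markers (SE 0.31, 95% interval 0.05 to 1.48, limma adjusted p = 0.298), and it was 0.60 without GC13 replicate 2. The second probe set of Adgre1 read 1.79 to 2.36 in FVB and 0.246, 0.645 and 4.39 in GC13, below the level at which probe sets were tested. Of the markers of other cells in skin, with none of their genes called, the summed intensity of dermal fibroblast genes (7 of 8 measured) was 8518 to 9325 in FVB and 10790 to 12483 in GC13, that of endothelial genes (8 of 8) was 630 to 762 and 873 to 1145, and that of skeletal muscle genes (8 of 8) was 2470 to 2594 and 2768 to 3274, with no gene at 0. The summed intensity of mast cell genes (10 of 12) was also higher in GC13, at 1041 to 1132 in FVB and 1329 to 1998 in GC13. That sum came mostly from Cma1, Tpsb2, Cpa3 and Kit, the brightest of the list, and Kit had a log2 fold change of -0.18. Of the 7 tested mast cell genes 6 were above 0 and 1 was below. Lysosome genes (18 of 20) were lower in GC13, at 9040 to 9130 and 7769 to 8410. The sums overlapped for other macrophage and monocyte genes (38 of 49), at 2640 to 2863 and 2296 to 2715. They also overlapped for erythroid genes (5 of 9), at 2027 to 2125 and 1374 to 2434. The part of these cells and genes in the Adgre1 values was not tested.

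Mrc1, on chromosome 2, encodes the mannose receptor CD206 of dermal and perivascular macrophages. It read 97.6, 75.4 and 66.6 in FVB, and the GC13 arrays read 93.8, 176 and 59.9. The groups overlapped, with GC13 holding both the highest and the lowest array. Its log2 fold change was 0.41 (SE 0.45, 95% interval -0.62 to 1.44, limma adjusted p = 0.704). Without GC13 replicate 2, the array at 176, it was -0.09, so the sign of the estimate rests on that array.

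The receptors for signals from outside came next. Csf1r, on chromosome 18, binds CSF1 and IL-34. Its brighter probe set read 148, 146 and 158 in FVB and 157, 154 and 106 in GC13. In deposited intensity replicates 1 and 2 of GC13 lay within the FVB range and replicate 3 lay below it. On the centred log2 scale replicates 1 and 2, at 0.10 and 0.30, lay above the highest FVB array, at 0.04, and replicate 3 stood at -0.58. The log2 fold change was -0.06 (SE 0.26, 95% interval -0.67 to 0.55, limma adjusted p = 0.933), and it was 0.20 without GC13 replicate 3. The dimmer probe set went the other way on that array: it read 20.5, 28.9 and 18.1 in FVB and 24.0, 22.5 and 43.5 in GC13, with a log2 fold change of 0.43 (SE 0.27, 95% interval -0.20 to 1.05, limma adjusted p = 0.49).

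Cd14, also on chromosome 18, is the co-receptor that hands lipopolysaccharide to the Toll-like receptor complex. It read 88.3, 110 and 96.4 in FVB and 130, 104 and 127 in GC13. In deposited intensity replicates 1 and 3 of GC13 were above all FVB arrays and replicate 2 was not. On the centred log2 scale all GC13 arrays, at 0.43, 0.35 and 0.29, were above the highest FVB array, at 0.15. GC13 minus FVB was 0.36 on the log2 scale (SE 0.19, 95% interval -0.09 to 0.81, limma adjusted p = 0.417), and it stayed at 0.36 without GC13 replicate 2.

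Fcgr3, on chromosome 1, encodes a low-affinity receptor for IgG that is carried by macrophages, neutrophils, natural killer cells and mast cells. It read 10.8, 7.22 and 10.1 in FVB, and the GC13 arrays read 13.9, 9.49 and 15.8. The order in deposited intensity was as for Cd14, with replicate 2 of GC13 among the FVB arrays and the others above them. On the centred log2 scale all GC13 arrays, at 0.53, 0.29 and 0.58, were above the highest FVB array, at 0.23. This gave a log2 fold change of 0.47 (SE 0.22, 95% interval -0.05 to 0.99, limma adjusted p = 0.366). Mast cell genes, which Fcgr3 does not separate from macrophages, had a summed intensity of 1041 to 1132 in FVB and of 1329 to 1998 in GC13 over 10 measured genes of 12 listed, with none at 0. The part of mast cells in the Fcgr3 values was not tested.

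**Figure D3:**
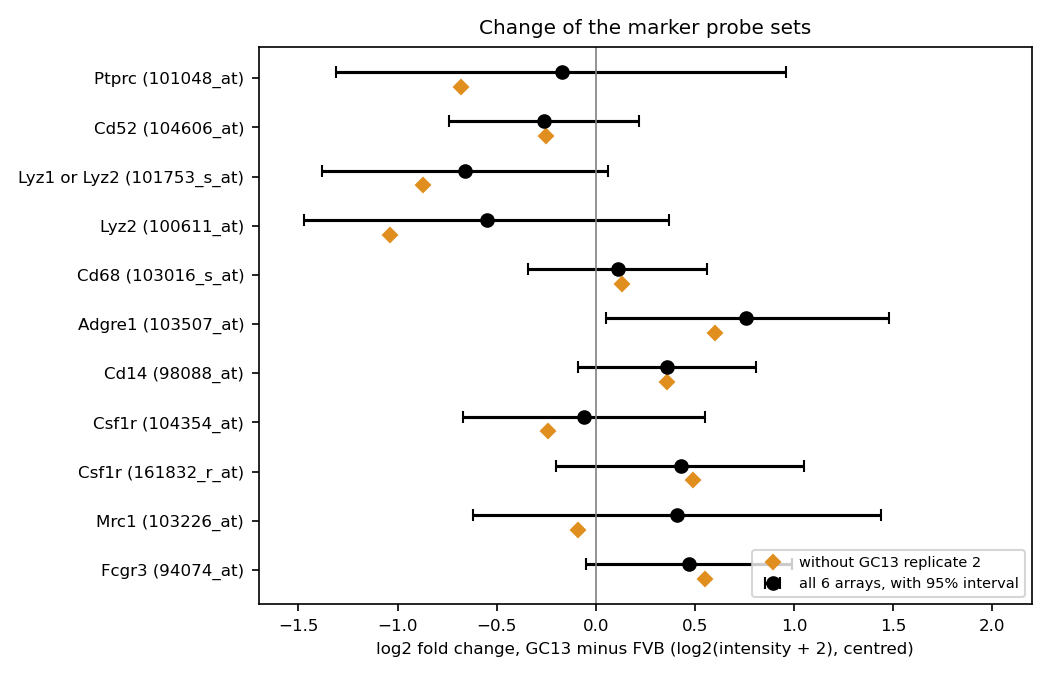
Log2 fold change of GC13 minus FVB for the 11 tested marker probe sets, with the 95% interval of the limma fit on all 6 arrays (black) and the estimate without GC13 replicate 2 (orange diamonds). Only the interval of Adgre1, 0.05 to 1.48, lies on 1 side of 0, and Mrc1 moves from 0.41 to -0.09 without that array.

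Genes that work with these markers were taken from 6 lists, and none of their genes passed over all probe sets. The list of other macrophage and monocyte genes had 38 of 49 genes measured and 33 tested, with 0 called in either direction. Its median log2 fold change was 0.11, beside 0.08 over all tested probe sets. At an unadjusted p under 0.05 there were 7 of the 33, against 15.5% of all tested probe sets. C1qa, which encodes a chain of complement C1q made largely by macrophages, read 65.1, 67.1 and 83.6 in FVB and 31.8, 8.12 and 18.4 in GC13. All GC13 arrays were below all FVB arrays (-1.87 on the log2 scale with an SE of 0.37, limma adjusted p = 0.0819). The limma adjusted p was 0.0214 without GC13 replicate 2. The other C1q chains of the list were added with their values in view. C1qb read 69.0 to 73.0 in FVB and 41.2 to 53.9 in GC13 (log2 fold change -0.56, limma adjusted p = 0.261). C1qc, the brightest, overlapped, at 98.2 to 139 and 74.7 to 156 (log2 fold change 0.11, limma adjusted p = 0.873). The 3 chains thus did not change alike. Lyve1, a hyaluronan receptor of lymphatic vessels and of some perivascular macrophages, read 33.9 to 40.5 in FVB and 50.2 to 59.9 in GC13 (log2 fold change 0.60, limma adjusted p = 0.213). Nos2, the inducible nitric oxide synthase of activated macrophages, was dim, at 2.77 to 6.14 in FVB and 7.77 to 13.7 in GC13 (log2 fold change 1.08, limma adjusted p = 0.128, and 0.0277 without GC13 replicate 2).

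In the list of colony stimulating factors, their receptors and myeloid transcription factors, 16 of 22 genes were tested and 0 were called, with a median of 0.22. Csf1, the ligand of Csf1r, read 46.9, 44.4 and 57.6 in FVB and 50.3, 54.0 and 86.4 in GC13 (log2 fold change 0.39, limma adjusted p = 0.474), with 2 of the GC13 arrays within the FVB range. Spi1, which encodes PU.1, read 20.6 to 27.6 and 19.0 to 33.2 (log2 fold change 0.18, limma adjusted p = 0.733). Csf1 and Spi1 lie outside the naming rule and were added with their values in view. Runx1, a transcription factor of blood cells that is also made in the hair follicle, read 18.9 to 28.4 in FVB and 6.78 to 13.9 in GC13 (log2 fold change -0.92, limma adjusted p = 0.158). Csf3r, the receptor of granulocyte colony stimulating factor, read 38.1 to 67.0 in FVB and 106, 48.3 and 132 in GC13 (log2 fold change 0.87, limma adjusted p = 0.277, and 0.0284 without GC13 replicate 2). Its ligand Csf3 read 18.8 to 31.7 in FVB and 25.5 to 83.0 in GC13, with a log2 fold change of 0.87 (limma adjusted p = 0.298).

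The lipopolysaccharide pathway had 8 of 17 genes tested and 0 called, with a median of 0.11. Irak1, a kinase below the Toll-like receptors, read 153 to 169 in FVB and 190 to 275 in GC13 (log2 fold change 0.60, limma adjusted p = 0.323). Tlr6, a Toll-like receptor that pairs with another of its family, read 6.68 to 8.54 and 7.38 to 13.2 (log2 fold change 0.42, limma adjusted p = 0.389). Rela, a subunit of NF-kB, read 381 to 437 in FVB and 330, 88.4 and 396 in GC13, with a log2 fold change of -0.78 (limma adjusted p = 0.448) and of -0.21 without GC13 replicate 2. Fc receptors and their signalling genes had 8 of 15 tested and 0 called, with a median of 0.20. Fgr, a Src family kinase of myeloid cells, read 12.9 to 22.3 in FVB and 38.5, 17.1 and 56.7 in GC13 (log2 fold change 0.88, limma adjusted p = 0.306, and 0.036 without GC13 replicate 2). Plcg2, a phospholipase of immune receptor signalling, read 17.0 to 26.8 and 25.3 to 36 (log2 fold change 0.50, limma adjusted p = 0.366). Inpp5d, the phosphatase SHIP that restrains Fc receptor signals, read 37.7 to 40.3 in FVB and 23.4 to 34.2 in GC13, with all GC13 arrays lower (log2 fold change -0.43, limma adjusted p = 0.467, and 0.0352 without GC13 replicate 2).

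Lysosome genes, the company of Cd68, had a median of -0.19, with 13 of 18 tested genes below 0, 5 above and 0 called. Lgmn, an asparagine endopeptidase gene, read 117 to 142 in FVB and 77.6 to 79.5 in GC13 (-0.64 on the log2 scale, limma adjusted p = 0.217, and 0.0378 without GC13 replicate 2). Cd63, a tetraspanin gene of late endosomes, read 701 to 790 and 438 to 553, and Ctsk, the cathepsin K gene, read 112 to 124 and 54.7 to 95.3, with limma adjusted p of 0.304 and 0.296 (0.0499 for Cd63 without GC13 replicate 2). Every keratinocyte and fibroblast has lysosomes too, so these genes are not particular to macrophages. Other leukocyte-wide genes, the company of Ptprc and Cd52, had 25 of 27 tested and 0 called, with a median of 0.14 and 18 above 0 against 7 below. Itgal, the integrin chain of LFA-1, was dim, at 3.15 to 8.06 in FVB and 6.51 to 14.9 in GC13 (log2 fold change 0.86, limma adjusted p = 0.233). Hcls1, a cortactin-like gene of blood cells, read 17.5 to 18.5 in FVB and from 1.74 on GC13 replicate 2 to 16 on replicate 1. Its log2 fold change was -1.32 (limma adjusted p = 0.248), and it was -0.91 without GC13 replicate 2 (limma adjusted p = 0.175).

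**Figure D4:**
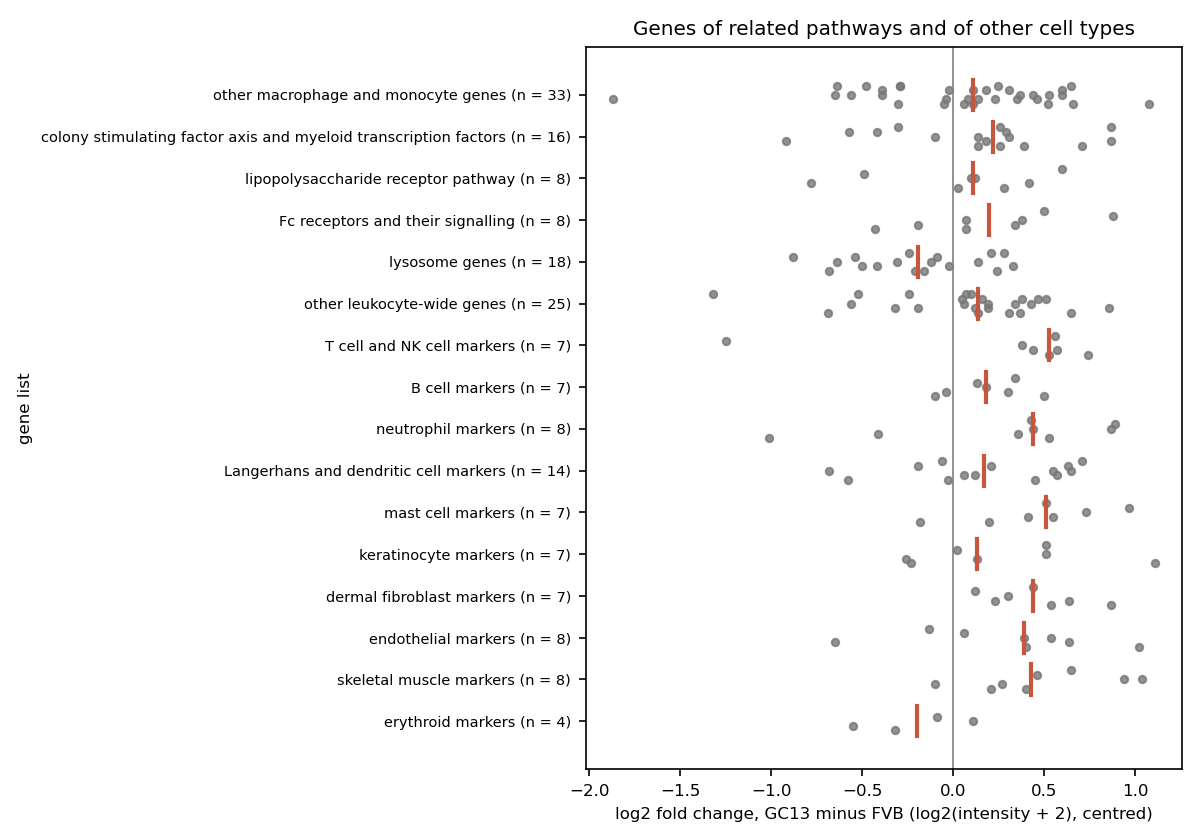
Log2 fold change of GC13 minus FVB for each tested gene (grey points, by its brightest probe set) in 16 gene lists, with the list's median as a red line and the number of tested genes in brackets. No point was called, and the medians run from -0.20 for erythroid markers to 0.53 for T cell and NK cell markers.

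Markers of single leukocyte lineages differed in how many were bright enough to test. Of 20 measured T cell and NK cell genes 13 were too dim to test, among them Cd3d, Cd3e and Cd3g, the invariant chains of the T cell receptor, which stayed between 0.883 and 8.95 on all arrays and were chosen for their low values. The 7 tested had 0 called and a median of 0.53. Thy1, which dermal fibroblasts and nerves express as well as T cells, read 165 to 186 in FVB and 230 to 374 in GC13, while Zap70, a kinase of T cell receptor signalling, read 89.7 to 140 in FVB and 33.7 to 67.4 in GC13 (limma adjusted p = 0.233 and 0.182, the latter 0.00995 without GC13 replicate 2). Gzma, a protease of cytotoxic cells, read 4.43 to 7.33 and 5.48 to 13 (log2 fold change 0.57, limma adjusted p = 0.331). B cell genes had 7 of 14 tested, 0 called and a median of 0.18. None of the 7 had an unadjusted p under 0.05, against 15.5% of all tested probe sets. Vpreb1, of the pre-B cell receptor, Ighm, the heavy chain of IgM, and Ms4a1, which encodes CD20, had log2 fold changes of 0.50, 0.34 and 0.30 (limma adjusted p = 0.418, 0.487 and 0.697, and 0.0351 for Vpreb1 without GC13 replicate 2). Neutrophil genes, which share Lyz2 with macrophages, had 8 of 18 tested, 0 called and a median of 0.44, with Camp, an antimicrobial peptide gene, at 15.2 to 22.5 in FVB and 23.8 to 50.4 in GC13 (limma adjusted p = 0.216). Ltf, lactoferrin, and Mpo, myeloperoxidase, had log2 fold changes of 0.89 and 0.53 (limma adjusted p = 0.298 and 0.315). S100a8 and S100a9, the chains of calprotectin, were added with their values in view. S100a8 read 162, 139 and 155 in FVB and 46.1, 146 and 51.1 in GC13, with a log2 fold change of -1.01 (limma adjusted p = 0.355) and of -1.63 without GC13 replicate 2 (limma adjusted p = 0.00537). S100a9 had -0.41 (limma adjusted p = 0.594), so the neutrophil genes lay on both sides of 0.

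Langerhans and dendritic cell genes had 14 of 19 tested, 0 called and a median of 0.17. H2-Ab1, a chain of MHC class II, read 113 to 132 in FVB and 66.4 to 76.8 in GC13 (log2 fold change -0.68, limma adjusted p = 0.181, and 0.0359 without GC13 replicate 2). H2-Eb1, a chain of the same class of molecule, read 19.4 to 29.5 and 26.6 to 51.9 (log2 fold change 0.63, limma adjusted p = 0.281), so these 2 class II chains lay on opposite sides of 0. H2-Aa and Cd74 of the same list, added with their values in view, were brighter and overlapped between the groups. Their log2 fold changes were 0.12 and -0.03 (limma adjusted p = 0.816 and 0.95), and that of H2-Aa was -0.01 without GC13 replicate 2. Birc3, an inhibitor of apoptosis, read 15.2 to 21.5 and 25.1 to 34.6 (log2 fold change 0.65, limma adjusted p = 0.306). Mast cell genes had 7 of 12 tested, 0 called and a median of 0.51. Cma1, mast cell chymase, read 483 to 512 in FVB and 690 to 1016 in GC13 (limma adjusted p = 0.198), and Cpa3, mast cell carboxypeptidase, read 144 to 147 and 194 to 221 (limma adjusted p = 0.287). Tpsb2, a mast cell tryptase, read 184 to 252 in FVB and 569, 179 and 573 in GC13 (log2 fold change 0.97, limma adjusted p = 0.295, and 0.0105 without GC13 replicate 2).

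Among cells that are not leukocytes, the genes with the smallest p lay below 0 only in the endothelial and erythroid lists. Of the tested genes, all 7 of fibroblasts, 7 of 8 of muscle, 6 of 8 of endothelium and 5 of 7 of keratinocytes were above 0. In the erythroid list 1 of 4 was above 0. Keratinocyte genes Krt1, Itgb4 and Lor had log2 fold changes of 1.11, 0.51 and 0.51, with limma adjusted p from 0.158 to 0.546. Fibroblast genes Pdgfra, Col1a2 and Col1a1 had 0.87, 0.64 and 0.54, with limma adjusted p from 0.194 to 0.281. Of the endothelial genes, Eng had 1.02, Cldn5 -0.65 and Flt1 0.54, with limma adjusted p from 0.182 to 0.36. The muscle genes Myh3, Casq1 and Tnnt3 had 1.04, 0.94 and 0.65, with limma adjusted p from 0.0797 to 0.239. The erythroid genes Alas2, Hba-a1 and Slc4a1 had -0.55, -0.32 and 0.11, with limma adjusted p from 0.472 to 0.809. Without GC13 replicate 2, the limma adjusted p was under 0.05 for Krt1 (0.01), Lor (0.017), Pdgfra (0.0204), Col1a2 (0.0492) and Eng (0.0318). In that fit it was also under 0.05 for Myh3 (0.0167), Casq1 (0.0169), Tnnt3 (0.0493), Alas2 (0.0201) and Hba-a1 (0.0328). The same fit called 14.8% of all tested probe sets. The genes named here had been picked for the smallest p of their lists with all arrays included. Whether these cell types differed as sets was not tested.

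Over all 16 lists, which also cover keratinocyte, fibroblast, endothelial, muscle and erythroid markers, 183 genes were tested, 0 were called and 40 had an unadjusted p under 0.05, that is 21.9% beside 15.5% of all tested probe sets. In deposited intensity the groups did not overlap for 26.2% of the 183, beside 22.9%. When each array was weighted by its fit, GC13 replicates 1, 2 and 3 received weights of 4.12, 0.107 and 0.329, and the FVB arrays 1.16 to 2.76, so the GC13 values rest mostly on replicate 1. For Lyz2 and Cd52 the weighted log2 fold changes of -0.95 and -0.46 lay next to that array's own differences from the FVB mean, -0.96 and -0.48. With these weights limma called 6 of the 11 marker probe sets, 3 lower (Cd52, Lyz2 and the probe set of Lyz1 or Lyz2) and 3 higher (Adgre1, Cd14 and Fcgr3), beside 41.3% of all tested probe sets. GC13 replicates 1 and 3, with nearly all of the GC13 weight, read 3.25 and 4.6 in Eif2s3y, and the FVB arrays 69.4 to 98.9. In these calls, too, that signal and the line can hardly be told apart.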

How the data were processed

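The authors deposited linear array intensities, 1 value per probe set and sample (6 samples, 12488 probe sets); for their software and background correction, the sources used here give no entry. Each array's mean without the highest and lowest 2% was close to 100, which is the scaling the values show. Ratios of 3′ over 5′ signal used some of the 66 control probe sets, which were otherwise left out. Symbols came from the platform annotation, updated by Entrez identifier with the RefSeq table of GRCm38.p6 (10817 of 10833 probe sets with 1 symbol matched; 396 list several genes and 1193 none). The files name no genome build.

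Intensities were set to log2(intensity + 2). Arrays were centred on their medians, which spanned 0.345. After the dimmest 25% by mean log2 value were left out, GC13 and FVB were compared with limma 3.58.1 in R 4.3.3 (lmFit, eBayes, two-sided) and Benjamini-Hochberg adjustment over 9316 probe sets, threshold 0.05. Other genes stood by their brightest probe set. Named genes were the markers and, from each list, those past the threshold or else the 3 with the smallest p; 1 gene is not reported here, and other names were chosen with their values in view. Markers and lists were chosen with earlier results of these data known. Alternatives were pseudocounts, filters, scalings, a variance trend, array weights, a replicate block and leaving out each array.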

Additional observations from a re-analysis of the deposited data

How the results depend on the processing

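The 11 tested marker probe sets gave 170 estimates under 16 alternatives: 158 kept their direction and stayed uncalled, 7 became called and 5 changed sign. The sign changes were in Ptprc (0.01 with a pseudocount of 32, and -0.68 to 0.41 when 1 array was left out, the positive value without GC13 replicate 3), Csf1r (0.06 with array weights, and -0.24 to 0.20, the latter without GC13 replicate 3) and Mrc1 (-0.09 without GC13 replicate 2 to 0.84 without GC13 replicate 3). Among the genes of the lists, Hba-a1 ran from -0.79 to 0.01, the latter without GC13 replicate 3. The number of marker probe sets called was 6 with array weights and ran from 0 to 1 when 1 array was left out, the 1 being Lyz2 without GC13 replicate 2. The cause of these changes was not tested.

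Over all probe sets, the 44 calls became 119 with a pseudocount of 32, 23 when the dimmest 50% were left out, 28 without centring and 3850 with array weights, and they ran from 0 (without any 1 of the FVB replicates) to 1379 (without GC13 replicate 2) when 1 array was left out; 9 and 11 were called without GC13 replicates 1 and 3. The split of 8 higher and 36 lower was 2 and 26 without centring, 8 and 15 with the 50% filter, 559 and 820 without GC13 replicate 2, and 2050 and 1800 with array weights. Same-numbered samples of the groups had correlations of -0.068, 0.18 and 0.357 between their deviations. Differently numbered samples had correlations from -0.355 to 0.228. So few values cannot tell whether the numbers pair the samples, and the main fit treated the samples as unpaired. With the replicate block 78 probe sets and 0 marker probe sets were called, and the log2 fold change of C1qa had a limma adjusted p of 0.0439. Signal over background is unknown, which limits the dim probe sets most.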

Other observations

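The patterns of the markers over the 6 arrays differed from each other. By their brightest probe sets, Ptprc and Csf1r had a Pearson correlation of 0.98 and Ptprc and Mrc1 one of 0.82 on the centred log2 scale, while Cd52 and Adgre1 had -0.71 and Lyz2 and Fcgr3 had -0.65. These correlations are over 6 arrays that share the difference between the groups and GC13 replicate 2, and they are given as a description without a test.

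The genes whose patterns were most like those of the markers were listed by the same correlation over the 6 arrays. For Lyz2 they were Epcam, an adhesion gene of epithelial and Langerhans cells (r = 0.999), Chmp2b (0.998) and Id2 (0.997). For Mrc1 they were Acsl5, Pld4 and Lsm14a (0.998, 0.997 and 0.996), and for Ptprc Akr1e1, Dicer1 and Pdcl3 (0.995, 0.993 and 0.992). Csf1r was nearest to Arih2 (0.993), Cd14 to Frk (0.988), Fcgr3 to Ring1 (0.999), Cd52 to Cdkn2aipnl (0.997), Cd68 to Rfng (0.934) and Adgre1 to Tnni2 (0.975). Lst1, a leukocyte gene, was among the 3 nearest to Adgre1 at 0.957. Nothing about shared function was drawn from these values.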
